A study of Mus musculus with 18 samples.

Results

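The genes described are 10 neuropeptide genes that mark classes of forebrain interneurons: Sst, Npy, Vip, Cck, Tac1, Cort, Penk, Pdyn, Crh and Nts. They are a list of names that no measured value defines, but it was chosen with earlier results of these data known. The genes were read in H3K27me3 CUT&Tag profiles of embryonic mouse medial ganglionic eminence (MGE). In CUT&Tag an antibody, in this study one that binds histone H3 trimethylated at lysine 27, guides a transposase to the mark, and the DNA cut there is sequenced. A gene was taken as marked in a library when an interval called by the authors overlapped its body extended by 2500 bp on each side (GRCm38). Of the 98434 intervals in the lists of 12 libraries, 69 lay at 7 of the 10 genes, and the genes are 10 of 21627 protein-coding genes on the autosomes and X.

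There were 4 groups of 3 libraries each: WT and Ezh2 knockout (KO) MGE at E12.5, and WT and KO MGE at E15.5. The KO embryos are labelled Nkx2.1-CreC/+;Ezh2;Ai9F/+, so that Ezh2 was removed by a Cre under control of Nkx2-1, a gene of the MGE progenitors, and recombined cells carry the Ai9 reporter. The parents were Nkx2.1-CreC/C;Ezh2F/+ males and Ai9F/F;Ezh2F/+ females, and the design text sets that string behind WT and KO together, so the WT embryos also come from this cross. Cells of the dissected MGE outside the Nkx2-1 lineage keep Ezh2. The whole MGE was taken at E12.5, while at E15.5 the reporter guided the dissection, so the stages also differ in how tissue was collected. MGEs of embryos of 1 genotype could be pooled, and the number of embryos behind a library is not given. Of the 18 samples 6 are heterozygous and are not analysed here.

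Neuropeptides are cut from precursor proteins, stored in dense core vesicles and act on G protein coupled receptors. Interneurons born in the MGE include the somatostatin cells, many of which also make neuropeptide Y, cortistatin or tachykinin, while vasoactive intestinal peptide and many cholecystokinin interneurons arise from the caudal ganglionic eminence. H3K27me3 is placed by Polycomb repressive complex 2, whose main methyltransferase in dividing cells is Ezh2, with Ezh1 as its paralog, and it lies over silent or poised genes, most often at starts rich in CG dinucleotides. Most peptide genes of interneurons are switched on after the cells leave the MGE.

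Libraries differed in depth, which is measured here as the mean count per 200 bp window that the authors' interval scores imply. It ran from 0.117 to 0.698 in E12.5 WT, from 0.212 to 0.272 in E12.5 KO, from 0.0751 to 0.150 in E15.5 WT and from 0.179 to 0.346 in E15.5 KO. The lists held 5008 to 13289 intervals, and the smallest count in a called interval ran from 5 to 13. Chromosome X held 18.1% to 24.5% of the covered bases in E12.5 WT replicate 3 and the E12.5 KO libraries and at most 5.33% in the other libraries; the 10 genes are all autosomal. Ezh2 itself had an interval in 0 of 12 libraries, so the lists do not check the deletion. Of the regional genes, Nkx2-1, Lhx6 and Lhx8 of the MGE were marked in all 12 libraries, as were Emx1 and Tbr1 of the pallium. Since the mark lies at silent genes and the tissue is mixed, this does not identify the dissected tissue. Fewer marked cells and less mark per cell cannot be told apart in bulk chromatin.

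The promoters of the genes at the ends of the presence pattern are shown, since the starts of Sst, Npy, Cck and Tac1 lay inside a called interval in all 12 libraries and those of Vip, Cort and Nts in 0 of 12. Each sequence is the 250 bases before the annotated start, from RefSeq (GRCm38.p6), 5′ to 3′ on the gene's strand, with CG dinucleotides in capitals. At Sst this start, base 23890844, lies inside the gene body used here, which reaches upstream to base 23891342. Positions at Sst are counted from base 23890844 and would differ with the other end. Entries were found for 8 of the 10 genes; Penk and Crh had none.

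The 4 promoters inside an interval in every library follow.
Sst (chr16:23890845-23891094, minus strand): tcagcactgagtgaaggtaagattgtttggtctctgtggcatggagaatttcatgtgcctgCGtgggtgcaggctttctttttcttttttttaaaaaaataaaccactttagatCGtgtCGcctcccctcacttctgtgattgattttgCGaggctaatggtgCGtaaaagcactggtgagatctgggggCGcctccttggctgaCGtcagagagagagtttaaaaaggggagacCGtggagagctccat
Npy (chr6:49822460-49822709, plus strand): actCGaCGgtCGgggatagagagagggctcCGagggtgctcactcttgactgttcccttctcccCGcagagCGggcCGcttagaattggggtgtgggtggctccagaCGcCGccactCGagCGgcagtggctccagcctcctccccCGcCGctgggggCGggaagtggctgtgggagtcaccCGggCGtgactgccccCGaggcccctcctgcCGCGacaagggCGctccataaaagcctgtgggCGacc
Cck (chr9:121495695-121495944, minus strand): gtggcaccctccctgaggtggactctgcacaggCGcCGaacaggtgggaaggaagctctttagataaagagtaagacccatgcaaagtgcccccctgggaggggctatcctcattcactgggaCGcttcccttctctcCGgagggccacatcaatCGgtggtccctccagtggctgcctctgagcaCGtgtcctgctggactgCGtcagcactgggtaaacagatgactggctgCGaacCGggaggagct
Tac1 (chr6:7554811-7555060, plus strand): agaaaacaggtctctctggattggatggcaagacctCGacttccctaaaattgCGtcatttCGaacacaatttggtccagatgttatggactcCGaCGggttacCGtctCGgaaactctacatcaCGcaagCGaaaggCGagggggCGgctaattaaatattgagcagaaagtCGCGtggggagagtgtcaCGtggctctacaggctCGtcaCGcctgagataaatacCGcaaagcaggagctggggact

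The 3 promoters with no interval in any library follow.
Vip (chr10:5638968-5639217, plus strand): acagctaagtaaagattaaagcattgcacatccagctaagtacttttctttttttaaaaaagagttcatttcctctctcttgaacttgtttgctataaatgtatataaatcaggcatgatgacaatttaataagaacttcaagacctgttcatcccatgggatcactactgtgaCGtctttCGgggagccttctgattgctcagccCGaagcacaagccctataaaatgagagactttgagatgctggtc
Cort (chr4:149126764-149127013, minus strand): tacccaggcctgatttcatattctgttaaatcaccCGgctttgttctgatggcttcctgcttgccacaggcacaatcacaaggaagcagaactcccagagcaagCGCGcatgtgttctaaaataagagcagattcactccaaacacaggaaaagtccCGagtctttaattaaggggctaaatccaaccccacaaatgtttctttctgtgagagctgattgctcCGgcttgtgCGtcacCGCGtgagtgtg
Nts (chr10:102490419-102490668, minus strand): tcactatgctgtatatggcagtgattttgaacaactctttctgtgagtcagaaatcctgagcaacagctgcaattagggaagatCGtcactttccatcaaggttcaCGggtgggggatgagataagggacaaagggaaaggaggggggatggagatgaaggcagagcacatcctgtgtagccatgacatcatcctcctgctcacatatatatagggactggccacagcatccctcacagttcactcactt

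CG dinucleotides numbered 21 at Npy, 17 at Tac1, 9 at Cck and 8 at Sst, against 8 at Cort, 3 at Vip and 2 at Nts. The counts of the marked and unmarked genes meet at 8, held by both Sst and Cort. Over 2515 promoters of genes with an interval in all 12 libraries the median was 14 (quartiles 7 and 22), and over 12515 promoters of genes with none it was 6 (quartiles 2 and 17). Sst and Cck lay below the median of the marked promoters, and Npy and Tac1 above it. The cyclic AMP response element, TGACGTCA, through which CREB drives Sst, was found on either strand in 1 of the 8 members' promoters, that of Sst, from base -48 to base -41 before the start. In the sequence printed above it reads tgaCGtca. It stood in 1.55% of 32851 promoters of this length. Its first 5 letters, TGACG, on either strand and counted also inside the longer element, stood in Sst, Vip, Cck, Tac1, Cort and Nts, and in 17.8% of the promoters, so these letters occur at marked and at unmarked members. TATAAA on either strand stood at Vip, last from base -30 to base -25, and in 12.4% of promoters.

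Of the 10 genes, 4 carried H3K27me3 in every library, 3 in some and 3 in none. Sst (chr16:23889573-23891342), Npy (chr6:49822710-49829507), Cck (chr9:121489824-121495694) and Tac1 (chr6:7555061-7562978) had an interval in 12 of 12 libraries, in both genotypes and at both stages. These are 4 of 10 genes, and 11.6% of the 21627 protein-coding genes were marked in all 12. Penk (chr4:4133536-4138815), the enkephalin precursor, had one in 11 libraries and lacked it in E15.5 WT replicate 1, the shallowest library. Vip (chr10:5639193-5647617), Cort (chr4:149125034-149126763), whose cortistatin resembles somatostatin, and Nts (chr10:102481756-102490418), the neurotensin precursor, had none in any library, which was so for 61.3% of all genes.

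Pdyn and Crh were marked in 5 libraries each, among them E12.5 WT replicates 2 and 3, the deepest of the 12. Pdyn (chr2:129686549-129699938), the dynorphin precursor, had counts of 81 and 31 in E12.5 WT replicates 2 and 3, 12 in E12.5 KO replicate 3, 11 in E15.5 WT replicate 3 and 17 in E15.5 KO replicate 1. Crh (chr3:19693401-19695396), the corticotropin releasing hormone gene, had counts of 52 and 48 in E12.5 WT replicates 2 and 3, and of 11 each in E12.5 KO replicates 2 and 3 and E15.5 WT replicate 3. The counts of 11 to 17 stand close to the smallest counts that the lists hold, and a missing interval means that none was called at that depth, not that the mark is absent. With every list cut to its 5008 highest scores, Pdyn had an interval in 2 libraries, Crh in 1, Penk in 11 and Sst in 11, and 3 of the 10 genes had one in all 12. The 3 unmarked genes had none with the gene body alone and with 10000 bp on each side.

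**Figure D1:**
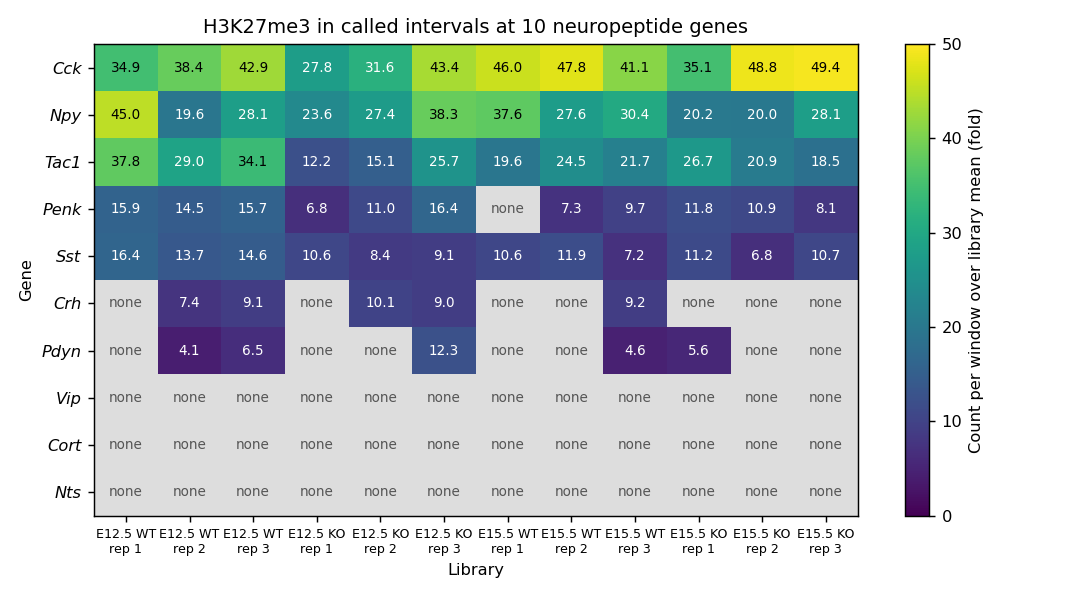
Mean count per 200 bp window of the called interval, as fold over the mean window of the same library, for 10 genes (rows) and 12 libraries (columns); grey cells marked none had no called interval. Cck stands highest by its median of 42.0-fold, Npy and Tac1 follow, and Vip, Cort and Nts are grey throughout.

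The marked genes differed in how strong the mark was. The level used here is the mean count per window of the called interval as fold over the library's mean window, which is per length and so can be set side by side between genes. It had a median over the marked libraries of 42.0-fold (27.8 to 49.4) at Cck, 27.8-fold (19.6 to 45.0) at Npy and 23.1-fold (12.2 to 37.8) at Tac1. It was lower at Penk, 11.0-fold (6.76 to 16.4), and at Sst, 10.7-fold (6.80 to 16.4). Crh had 9.08-fold (7.45 to 10.1) and Pdyn 5.60-fold (4.14 to 12.3), each over 5 libraries. The ranges of Npy and Tac1 overlapped, as did those of Penk, Sst, Crh and Pdyn. These ranges mix libraries and groups, while the genes were read in the same libraries. Within libraries, Tac1 stood above Penk wherever both had an interval. Cck stood above Npy in every library but E12.5 WT replicate 1. The order of Npy and Tac1 changed between libraries, as did that of Penk and Sst. The range of Cck lay wholly above that of Sst. Ranked by the authors' score within each library, the Cck interval stood at a median percentile of 92.4, Npy at 84.9, Tac1 at 76.7, Penk at 65.4 and Sst at 56.5. The Sst interval was thus of ordinary score, from the 31.8th to the 80.2nd percentile.

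Intervals at the 4 always marked genes spanned the start of the gene on both sides. The Sst interval had a median length of 3000 bp (2000 to 5000), from base -1856 to base 1243 around the start in the median. The Npy interval was 5700 bp long in the median (3400 to 14200), and its longest was in E12.5 WT replicate 2, the deepest library. The Cck interval was the longest in the median, 7600 bp (6000 to 11400), and ran from base -3206 to base 4593. The Tac1 interval was 3500 bp long (2800 to 4400), from base -1260 to base 2239, and varied least of the 4 in its range. Bases shared by all 12 libraries came to 5200 at Cck, 2600 at Npy, 2600 at Tac1 and 1400 at Sst, and the whole 250-base promoter printed above lay inside them for each of the 4. No merged region at a marked gene overlapped another protein-coding gene.

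**Figure D2:**
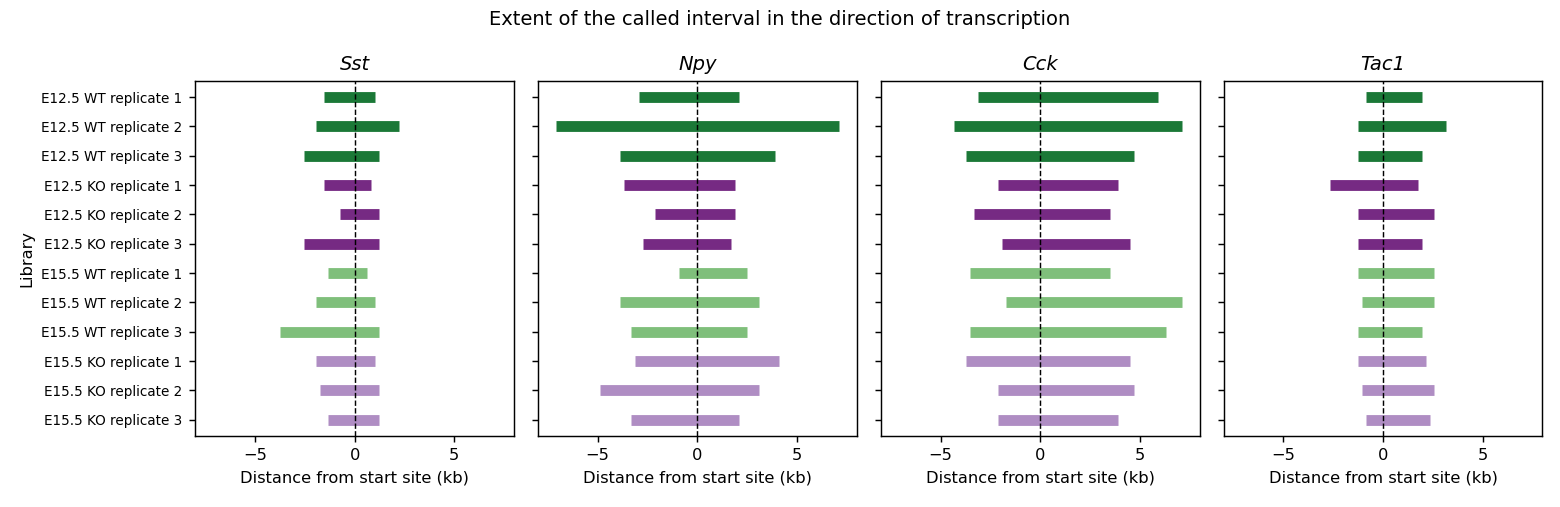
Extent of the called interval at Sst, Npy, Cck and Tac1 in each of 12 libraries, as distance in kb from the start site in the direction of transcription (dashed line at 0), coloured by group. The start lies inside the interval in all 12 libraries, and the Npy interval of E12.5 WT replicate 2 is the longest at 14200 bp.

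Loss of Ezh2 was compared with WT at E12.5 first. Sst, Npy, Cck and Tac1 had lower depth-scaled counts in all 3 KO libraries than in any WT library, but none of the 5 genes that could be tested passed the adjusted test, and the median of all regions was lower in KO as well. Normalised counts are counts divided by the library's own depth and multiplied by the mean depth. Sst, whose peptide inhibits hormone and transmitter release, had 55.4, 74.8 and 71.9 in WT and 33.1, 21.9 and 44.9 in KO. The groups did not overlap, and KO replicate 3 was the closest to WT. WT libraries averaged 67.4 ± 10.5 and KO libraries 33.3 ± 11.5 (SD, n = 3 each), and edgeR gave a log2 change of -1.04 (SE 0.42, adjusted p = 0.0830).

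Npy, a peptide of many somatostatin interneurons, had normalised counts of 292, 361 and 284 in WT and 171, 142 and 219 in KO. The log2 change was -0.82 (SE 0.36, edgeR adjusted p = 0.107). Cck, the cholecystokinin gene, had 408, 568 and 468 in WT and 217, 280 and 361 in KO. KO replicate 3 was again the highest KO library, and the log2 change was -0.75 (SE 0.34, edgeR adjusted p = 0.110). Tac1, which encodes substance P, had 137, 166 and 142 in WT and 69.8, 74.4 and 107 in KO, with no overlap between the groups. Its log2 change was -0.83 (SE 0.41, edgeR adjusted p = 0.142). Penk had 62.0, 71.8 and 65.4 in WT and 40.4, 48.7 and 64.1 in KO, so the groups overlapped, and its log2 change was -0.38 (edgeR, SE 0.42, adjusted p = 0.472).

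Groups that did not overlap, with KO lower, were found for 4 of 5 genes and for 33% of 3236 regions tested; KO was wholly higher at 0 genes and 0.649% of regions. Of the 5 genes 0 passed edgeR's adjusted test, beside 10.4% of the 3236 regions called lower by it and 0.34% called higher. An unadjusted p below 0.05 was found for 4 of the 5 genes. The share of all regions at an unadjusted p is not given for region counts, so such counts of genes have no background. The median change of the 5 genes was -0.82 and that of all regions -0.561. With TMM factors, which centre the regions, the median region moved to -0.04, 4.45% of regions were called lower and 2.97% higher, and the genes read -0.52 at Sst, -0.29 at Npy, -0.24 at Cck, -0.31 at Tac1 and 0.14 at Penk, so Penk changed its sign. Of the 5 genes 0 were called with TMM factors (1 at unadjusted p below 0.05) and 0 by DESeq2 (0 unadjusted), which called 4.63% of regions lower and 4.73% higher. The mean depth of the WT libraries, 0.432, was above that of the KO libraries, 0.243, and its part in the result was not tested. The list of regional genes (MGE, ventral and pallial forebrain, posterior and other tissues) had 18 genes tested in 16 regions, of which 1 rose and 1 fell: Nkx2-1, which specifies the MGE, rose by 1.19 (edgeR, SE 0.24, adjusted p = 6.333e-05; 1.70 with TMM factors, adjusted p = 0.0005239) and Emx2, a pallial gene, fell by 0.67 (SE 0.21, edgeR adjusted p = 0.0224; -0.17 with TMM factors, adjusted p = 0.665). With TMM factors 3 of the 18 rose and 0 fell, the others being Dlx1 and Dlx2, which share a region (1.09, adjusted p = 0.0179; 0.59, adjusted p = 0.0593, with depth scaling). The median of the 18 was 0.0835 (0.606 with TMM factors), and their part in the result was not tested. Without E12.5 KO replicate 3, the KO library nearest to WT at these genes, 4 of 5 genes passed edgeR's test. The log2 changes were -1.32 at Sst (edgeR adjusted p = 0.0121), -0.9998 at Npy (0.0114), -0.96 at Cck (0.0115) and -1.04 at Tac1 (0.0243). Of all regions 47.7% were then called lower and 0.648% higher. Leaving out the KO library nearest to WT enlarges the difference by construction, so these calls are no support for a change. Leaving out any other single E12.5 library called 0 of the genes.

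**Figure D3:**
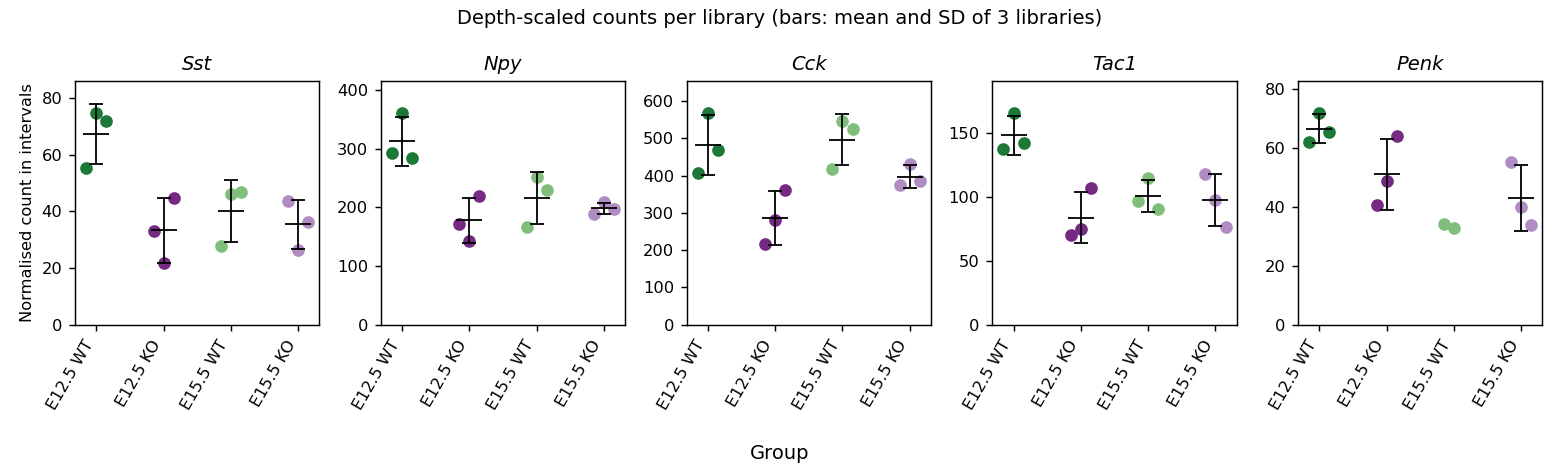
Normalised count in the called intervals (vertical axis, scaled for depth) at Sst, Npy, Cck, Tac1 and Penk by group; points are libraries, bars the mean and SD of 3 libraries. At E12.5 the KO points of Sst, Npy, Cck and Tac1 lie below all WT points, at E15.5 the groups overlap at Sst, Npy, Cck and Tac1, and Penk has 2 E15.5 WT points and no bar there.

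A lower count can come with a shorter interval or with fewer counts per window. Both are given for E12.5, and the genes were not tested against each other. The level per window is taken over the called length, which differed between libraries. In E12.5 WT, Npy had 45.0-fold over 5000 bp in replicate 1 and 19.6-fold over 14200 bp in replicate 2, the deepest library. At Sst the level per window was 14.9 ± 1.4-fold in WT and 9.38 ± 1.11-fold in KO (SD, n = 3 each), without overlap, and the covered bases of the gene's window were 3533 ± 833 (SD, n = 3) and 2733 ± 945 (SD, n = 3). At Tac1 it was 33.6 ± 4.4-fold in WT and 17.7 ± 7.1-fold in KO (SD, n = 3 each), also without overlap, while the covered bases of the gene's window were 3467 ± 833 (SD, n = 3) and 3747 ± 522 (SD, n = 3). At Npy the level per window was 30.9 ± 13.0-fold in WT and 29.7 ± 7.7-fold in KO (SD, n = 3 each), and the covered bases of the gene's window were 6858 ± 2532 (SD, n = 3) and 4194 ± 196 (SD, n = 3). Cck had 38.7 ± 4.0-fold in WT and 34.3 ± 8.1-fold in KO (SD, n = 3 each), and covered bases of 8394 ± 1200 and 6131 ± 233 (SD, n = 3 each). At Penk the level per window was 15.4 ± 0.75-fold in WT and 11.4 ± 4.9-fold in KO (SD, n = 3 each), with covered bases of 3333 ± 416 and 3667 ± 833 (SD, n = 3 each). So 2 of 5 genes had KO below WT in every library per window, as had 8.37% of regions, while 0 genes and 1.61% of regions had KO above WT. With the covered length as an offset, an alternative chosen after seeing the data, edgeR gave log2 changes of -0.65 at Sst (SE 0.40, adjusted p = 0.997) and -0.92 at Tac1 (SE 0.38, adjusted p = 0.743), and -0.03 at Npy, -0.18 at Cck and -0.44 at Penk. It called 0 of the 5 genes (1 at unadjusted p below 0.05) and, of all regions, 0.0618% lower and 0% higher.

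At E15.5 the groups overlapped at all 4 genes with an interval in every library, and none passed the test. Sst had normalised counts of 27.7, 46.2 and 46.8 in WT and 43.7, 26.5 and 36.1 in KO, and its log2 change was -0.23 (edgeR, SE 0.33, adjusted p = 0.814). WT replicate 1, with a raw count of 8, was the shallowest library. Npy had 166, 251 and 229 in WT and 189, 208 and 197 in KO, a change of -0.11 (SE 0.18, edgeR adjusted p = 0.838). The KO values lay inside the WT range. Tac1 had 96.9, 115 and 90.1 in WT and 118, 97.5 and 76.7 in KO, a change of -0.06 (SE 0.25, edgeR adjusted p = 0.941). Cck had 419, 546 and 524 in WT and 374, 431 and 385 in KO. Of its KO values 1 lay above the lowest WT value, and the change was -0.33 (SE 0.13, edgeR adjusted p = 0.197). Penk could not be tested, since 1 WT library had no interval; its other values were 34.2 and 32.9 in WT and 55.3, 39.7 and 33.8 in KO.

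Of the 4 genes tested at E15.5, 0 passed the adjusted test with edgeR and 1, Cck, had an unadjusted p below 0.05. The same numbers of genes were found with TMM factors and with DESeq2. Here too the unadjusted count has no share of regions beside it. Regions called lower were 1.69% and higher 3.21% of 2774 (3.03% and 4.11% with TMM factors, 3.32% and 4.41% with DESeq2), and the median region had a change of -0.0182. Of the 18 regional genes, Lhx6, an MGE interneuron factor, rose by 0.52 (edgeR, SE 0.12, adjusted p = 0.0247) and Emx2 fell by 0.74 (SE 0.13, edgeR adjusted p = 0.00451), and both were called with TMM factors too. Their median was 0.0554, and their part in the values of the 4 genes was not tested. KO libraries all below WT were found at 0 of 4 genes and 8.51% of regions, and all above at 0 of 4 genes and 13.2% of regions. The Npy level per window was 31.9 ± 5.2-fold in WT and 22.8 ± 4.6-fold in KO (SD, n = 3 each) in the interval at the gene, where the highest KO value, 28.1, lay above the lowest WT value, 27.6. Over the merged region, which in KO replicate 3 holds a further interval outside the gene's window, counts per covered length were below WT in every KO library at Npy, 1 of 4 genes, and at 15.8% of regions (KO above WT at 0 genes and 2.27% of regions). With the covered length as an offset the Npy change was -0.60 (SE 0.22, edgeR adjusted p = 0.309).

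The change in KO against WT was then compared between the stages. The E15.5 change minus the E12.5 change was 0.81 at Sst (SE 0.52, edgeR adjusted p = 0.244), 0.72 at Npy (SE 0.40, adjusted p = 0.197), 0.43 at Cck (SE 0.36, adjusted p = 0.355) and 0.77 at Tac1 (SE 0.47, adjusted p = 0.229). All 4 were positive, as the median region was at 0.61, and 0 of 4 passed the test (0 at unadjusted p below 0.05, and 0 with TMM factors or DESeq2), beside 6.21% of 2367 regions that passed higher and 0% lower. Regions past it were 1.94% higher and 0.211% lower with TMM factors, and 1.99% and 0.591% with DESeq2. A difference between the stages was thus not detected at these genes. With TMM factors the Cck value was -0.12 and the median region 0.0672. Without E12.5 KO replicate 3, Npy (0.89, edgeR adjusted p = 0.0299) and Tac1 (0.99, adjusted p = 0.0400) passed, beside 45.2% of regions. This is again the KO library nearest to WT at E12.5, so these 2 calls are no support for a difference. Leaving out any other single library called 0 of the genes.

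**Figure D4:**
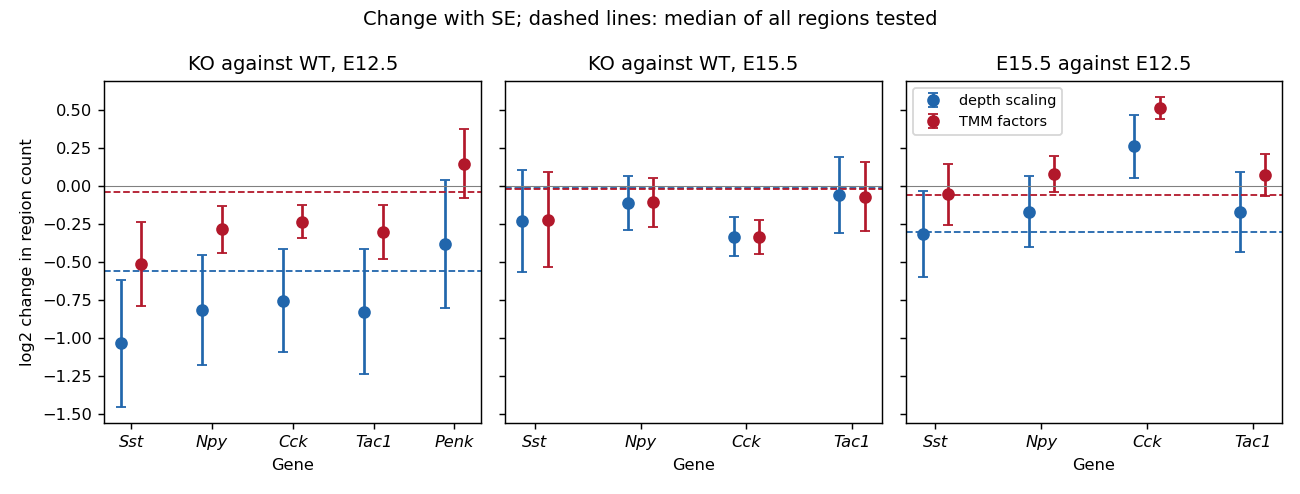
log2 change in region count (points, with SE bars) at each tested gene in 3 comparisons, with depth scaling in blue and TMM factors in red; dashed lines mark the median of all regions tested under each scaling. At E12.5 Sst, Npy, Cck and Tac1 lie below the median region under both scalings and Penk above it, and Cck between the stages is at 0.26 with depth scaling and 0.51 with TMM factors.

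From E12.5 to E15.5, over both genotypes, none of the 4 genes passed the test with depth scaling. The log2 changes were -0.32 at Sst (SE 0.28, edgeR adjusted p = 0.380), -0.17 at Npy (SE 0.23, adjusted p = 0.583), -0.17 at Tac1 (SE 0.26, adjusted p = 0.634) and 0.26 at Cck (SE 0.20, adjusted p = 0.325). The median region was at -0.305, with 30.1% of 2367 regions called lower and 6.72% higher. Cck was the 1 gene of the 4 above 0, and 0 of 4 had an unadjusted p below 0.05. With TMM factors, under which the median region was at -0.0599 and 27.2% of regions were called lower and 21% higher, Cck rose by 0.51 (SE 0.075, edgeR adjusted p = 3.839e-05), and DESeq2, which called 24.7% of regions lower and 25.4% higher, gave 0.57 (adjusted p = 1.331e-10). Both scalings that centre the regions thus call Cck and depth scaling does not. Of the 18 regional genes, 9 were called lower and 2 higher with depth scaling, and 6 and 4 with TMM factors. The log2 change was -1.12 at Dlx1 and Dlx2, which share a region (edgeR adjusted p = 1.668e-10). It was 0.70 at Nkx2-1 (edgeR adjusted p = 0.0001874) and 0.40 at Lhx8 (0.0285). The dissection also differed between the stages, and its part in these values was not tested.

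In WT alone, the E15.5 libraries were below all E12.5 libraries at Sst, Npy and Tac1, 3 of 4 genes, and at 54% of regions. Sst had a mean of 67.4 ± 10.5 (SD, n = 3) at E12.5 and 40.2 ± 10.9 (SD, n = 3) at E15.5 in WT, and 33.3 ± 11.5 and 35.4 ± 8.6 (SD, n = 3 each) in KO. The E12.5 WT libraries stood above all other libraries at Sst, and so they did at Npy and Tac1. The share of all regions with E12.5 WT above all other libraries was not counted, so this pattern has no background. For parts of it, E12.5 KO lay wholly below E12.5 WT at 33% of 3236 regions, and E15.5 WT did at 54%. In KO the E15.5 libraries were above all E12.5 libraries at 1 of 4 genes, Cck, and at 15% of regions. Cck means were 286 ± 72 (SD, n = 3) at E12.5 and 397 ± 30 (SD, n = 3) at E15.5 in KO, and 481 ± 81 and 496 ± 68 (SD, n = 3 each) in WT.

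The bases covered by intervals give a measure for all 7 marked genes, since a missing interval counts as 0 bases. Averaged over both stages, Cck had 8128 covered bases in WT and 6365 in KO, a difference of -1764 (exact two-sided permutation within stages, p = 0.03, adjusted p = 1). The smallest p that this design allows is 0.005. The difference was -507 at Sst (exact p = 0.355), -867 at Npy (0.47), 73.3 at Tac1 (0.845), 733 at Penk (0.3), -1100 at Pdyn (0.44) and -667 at Crh (0.2). After adjustment over 8377 genes 0 of the 7 passed, and of all genes 0 passed adjusted and 0.955% had an unadjusted p below 0.05. With a smallest p of 0.005 and 8377 genes the adjusted test could hardly pass, here or between the stages. No conclusion is drawn from its 0 calls. Between the stages the differences ran from -867 at Penk (exact p = 0.195) and -733 at Crh (exact p = 0.14) to -32.3 at Cck (exact p = 1), with 0 of 7 genes past the test and 6.37% of genes at an unadjusted p below 0.05. Covered bases depend on depth, which differed between the groups in opposite directions at the 2 stages.

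Across the 12 libraries the gene most like Sst in its log2 depth-scaled count was Sned1, with a Pearson r of 0.949, followed by Slc16a9 (0.942), Cnksr1 (0.942), Epb41l3 (0.941) and Egfr (0.931), out of 2517 genes marked in all 12. The values of all genes share library depth and group, and the median r with Sst over all of them was 0.589 (5th percentile -0.108, 95th percentile 0.842). Of the other peptide genes Npy had an r of 0.905, Tac1 0.815 and Cck 0.578 with Sst, so Cck stood near the median gene. These correlations are descriptions over 12 libraries in 4 groups.

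Genes that act with these peptides were read in the same way. Of 29 other neuropeptide precursors 12 were marked in all libraries and 9 in none, and of 24 receptors of the members' peptides 11 and 5. Of 12 genes of peptide processing and dense core vesicles the numbers were 4 and 6. Over all protein-coding genes 11.6% were marked in all 12 libraries and 61.3% in none. Among the receptors, Sstr1, Sstr2 and Sstr5 for somatostatin and Npy1r and Npy4r for neuropeptide Y were marked in 12 of 12 libraries. So were Vipr1 for vasoactive intestinal peptide and Ntsr1 and Ntsr2 for neurotensin. Sstr3 had an interval in 2 libraries and Vipr2 in 5, while Npy6r, Cckar, Tacr2, Tacr3 and Oprk1 had one in 0. Vip and Nts thus had no interval while a receptor gene of each had one in every library. Of the processing genes, the convertase Pcsk2 was marked in 12 libraries and the convertase Pcsk1, the carboxypeptidase Cpe and the amidating enzyme Pam in 0.

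At E12.5, 1 of 15 tested precursors fell in KO, Kiss1, which encodes kisspeptin. Its normalised counts were 102, 112 and 87.0 in WT and 34.3, 34.4 and 35.3 in KO, and its log2 change was -1.53 (edgeR, SE 0.44, adjusted p = 0.00971; with TMM factors -0.98, adjusted p = 0.0442). Of 16 receptors 1 fell, Npy4r (-1.20, SE 0.31, edgeR adjusted p = 0.00331; with TMM factors -0.66, adjusted p = 0.0784), and of 4 processing genes 1 fell, Cadps2, a vesicle release factor (-1.24, SE 0.43, edgeR adjusted p = 0.0413; with TMM factors -0.74, adjusted p = 0.102). No gene of these lists rose. Beside 10.4% of all regions called lower (4.45% with TMM factors), 1 of 15 and 1 of 16 are shares near or below the background. The share of 1 of 4 processing genes is above it but rests on 1 gene, which was not called with TMM factors. The median changes were -0.492, -0.673 and -0.481 in the 3 lists, beside -0.561 for all regions.

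At E15.5, 0 of 12 precursors and 0 of 11 receptors changed in KO, and of 4 processing genes 1 fell, Vgf, a secreted granule protein (-0.39, SE 0.10, edgeR adjusted p = 0.0385; with TMM factors adjusted p = 0.0181). Of all 2774 regions 1.69% were called lower and 3.21% higher. The Vgf values were 661, 697 and 693 in WT and 527, 531 and 513 in KO. The difference between the stages in the KO change passed at 0 genes of the 3 lists. From E12.5 to E15.5, 5 of 12 precursors, which lie in 11 regions, fell and 0 rose, beside 30.1% of all regions called lower and 6.72% higher. Trh (-1.20), Grp (-1.03) and Pthlh (-0.93) had the largest falls, and Avp and Oxt share 1 region (-0.41, edgeR adjusted p = 0.0416; with TMM factors -0.16, adjusted p = 0.0690). With TMM factors 3 of the 12 fell and 2 rose, Adcyap1 (0.26, edgeR adjusted p = 0.0337) and Pnoc (0.69, adjusted p = 0.0160), beside 27.2% and 21% of regions. Of 11 receptors 4 fell and 0 rose, with Sstr5 (-0.94), Npy1r (-0.78) and Ntsr1 (-0.78) the largest. With TMM factors 4 fell and 2 rose, Crhr1 (0.39, edgeR adjusted p = 0.00224) and Crhr2 (0.32, adjusted p = 0.0168). Of 4 processing genes Cadps2 rose, by 1.53 (SE 0.14, edgeR adjusted p = 7.185e-15), and with TMM factors Vgf rose too (0.35, edgeR adjusted p = 0.00336). Regions were merged anew in each comparison, so the Cadps2 region here need not be the one that fell in KO at E12.5. The values of a gene in different comparisons can thus stand for different regions.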

How the data were processed

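H3K27me3 CUT&Tag intervals of 12 libraries were used, each with its own list. Per the submitters' processing notes, cutadapt, Bowtie2, SAMtools, Picard, deepTools and SICER were used with GRCm38 (mm10); their versions and settings are not given in the sources used here. Interval counts are the authors' deposited whole numbers, without normalization. The authors' deposited score served to rank intervals and to recover depth. For intervals of 1 window (200 bp) the score is the negative log of a Poisson probability with a mean common to the library. This mean was used as the depth, on the assumption that it follows the total reads.

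Intervals overlapping a gene body with 2500 bp on each side (at least 1 bp) were assigned to the gene. Counts were summed over merged autosomal regions that every compared library called. The merging was done anew for each comparison, so the region read for a gene can differ between comparisons. The edgeR 4.0.16 quasi-likelihood test (R 4.3.3) was run with depth as the library size and Benjamini-Hochberg adjustment over all regions; the threshold was 0.05. Regions missing from any list are outside this test. Covered bases were tested by exact two-sided permutation over 400 assignments. DESeq2 1.42.0 and TMM factors were among the alternatives. When 200 regions were given 2-fold changes in simulated counts, the test found 24.5% of them in the E12.5 comparison (3236 regions), 67% in that of E15.5 (2774 regions) and 93.5% in that of the stages (2367 regions). Replicates are labelled as biological, but embryos per library are not given.

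The 10 genes, the other lists and the tests were chosen with earlier results of these data known. The genes named are the 10, the 5 most like Sst, and at most 3 called genes of each other list, comparison and direction; other genes named for their presence alone were chosen after their values were seen. Python 3.11.15 was used with pandas 2.3.3, numpy 2.4.6, matplotlib 3.10.9 and scipy 1.17.1.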

Additional observations from a re-analysis of the deposited data

How the results depend on the processing

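Of the values for single genes in the tests of region counts under the alternatives tried, 262 kept their direction and their side of the threshold, 10 newly passed it and 14 changed sign. Of those for covered bases 18 changed sign; their adjusted test could hardly pass at this sample size, so its threshold says nothing of stability. The number of genes called at E12.5 ran from 0 to 4 when single libraries were left out, and was 2 with the replicate block (Npy -0.83, adjusted p = 0.0369; Cck -0.77, adjusted p = 0.0312), under which 625 of 3236 regions were called lower and 19 higher. Same-numbered WT and KO libraries had deviations correlated at r from -0.1 to 0.232, and not every library correlated best with its own number, so the numbers were not taken to pair them. The number past the test of the difference between the stages ran from 0 to 2, and that between E12.5 and E15.5 was 1 with TMM factors and 1 with DESeq2, both times Cck. The other numbers of genes called were 0 throughout, and 3 genes were marked in all 12 libraries with lists of equal length.

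Signs changed as follows. In KO against WT at E12.5, Penk was 0.14 with TMM factors and 0.21 with DESeq2. At E15.5, Sst was 0.017 per covered length, and leaving out single libraries gave -0.25 to 0.0097 at Npy and -0.21 to 0.096 at Tac1, with values above 0 without E15.5 WT replicate 2 (both) or E15.5 KO replicate 3 (Tac1). In the difference between the stages, Npy was -0.59 per covered length, and Cck -0.12 with TMM factors and -0.19 with DESeq2. Between the stages, Npy was 0.076 and Tac1 0.071 with TMM factors, and Sst 0.0082, Npy 0.14 and Tac1 0.13 with DESeq2. Covered bases in KO minus WT were 62 at Sst and -133 at Tac1 with the gene body alone, and ran from -93.3 to 307 at Tac1 when single libraries were left out. Covered bases in E15.5 minus E12.5 were 174 at Sst with equal lists, 100 at Sst with 10000 bp on each side and 133 at Tac1 with the gene body alone. Leaving out single libraries gave -450 to 110 at Sst, -967 to 283 at Npy, -332 to 435 at Cck, -307 to 93.3 at Tac1 and -933 to 467 at Pdyn; all of these were above 0 without E12.5 WT replicate 2. The cause of these shifts was not tested, and none of these values passed a test.

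Regions called lower and higher at E12.5 numbered 337 and 11, against 144 and 96 with TMM factors, 144 and 147 with DESeq2, 2 and 0 per covered length, 85 and 0 for regions called in most libraries, 10 and 1 for regions of like length and 127 and 0 for gene windows. At E15.5 they numbered 47 and 89, against 84 and 114 with TMM factors, 3 and 0 per covered length, 8 and 41 for regions called in most libraries and 2 and 11 for gene windows. Between the stages they were 712 and 159, against 643 and 497 with TMM factors, 585 and 601 with DESeq2 and 247 and 87 per covered length. The difference between the stages gave 147 higher regions, against 46 with TMM factors, 47 with DESeq2, 272 with the replicate block, 0 per covered length and 14 for gene windows. Regions of like covered length held none of the genes at E12.5 and Tac1 alone at E15.5, and DESeq2 gave no adjusted p for Sst at E15.5. At the depths of the E15.5 WT libraries the counts at Sst were 8, 23 and 27, which limits what change could be detected.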
